A study of Mus musculus with 24 samples.

Results

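The axoneme is the microtubule core of motile cilia and of the sperm flagellum, and the genes described here are the mouse protein-coding genes whose symbols begin with Dnah, Dnai, Dnal, Dnaaf, Cfap, Rsph, Tekt or Drc in the GENCODE M21 annotation. The prefix picked 71 of the 55536 rows of the count table, of which 22028 rows are protein-coding genes. There were 15 Dnah, 2 Dnai, 3 Dnal, 4 Dnaaf, 31 Cfap, 8 Rsph, 5 Tekt and 3 Drc genes. They lie on 17 chromosomes, with 0 on X or Y and 6 on chromosome 4, and their summed exon lengths run from 798 to 26820 bases with a median of 3500 bases. The prefix rule uses names and no measured values, although the set was proposed with earlier results of these data known.

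Messenger RNA was sequenced from male germ cells of C57BL/6J mice aged 10 to 15 weeks. The mice carried 2, 1 or 0 intact copies of a chromosome 4 stretch, and are written Ago413+/+ (wild-type), Ago413+/- (heterozygous) and Ago413-/- (null). Ago1 is deleted whole, and Ago3 and Ago4 in part. These genes encode Argonaute proteins that bind small RNAs, and an effect of 1 of them cannot be told apart from that of the others. Testes of 2 to 5 mice were pooled for each preparation, and cells were separated by sedimentation through a BSA gradient into enriched pachytene/diplotene spermatocytes, which are cells in meiotic prophase, and enriched round spermatids, which are the haploid cells that follow meiosis. Fractions above 70% purity by microscopy were kept, so each library may hold cells of neighbouring stages. The submitters marked 3 libraries as outliers and these were not used, so that 21 were compared. For spermatocytes the number was 4 in wild-type, 3 in heterozygous and 3 in null mice. For round spermatids it was 3, 4 and 4 in the same order.

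Outer and inner dynein arms are rows of motor complexes on the peripheral microtubule doublets, and their heavy chains hydrolyse ATP to slide neighbouring doublets. Dynein arm assembly factors fold and join the arm subunits in the cytoplasm, while radial spokes, the central apparatus and the nexin-dynein regulatory complex coordinate the motors, and tektins and other microtubule inner proteins stiffen the doublets from within. In the testis, transcription of many flagellar genes begins in meiotic cells and the axoneme itself is built in spermatids.

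Library totals ran from 12825105 to 29749058 counts with a median of 20255360. The fraction labels were checked with marker lists of 8 genes each: between wild-type spermatocytes and round spermatids, 8 of 8 elongating spermatid markers were higher, 2 of 8 round spermatid markers were higher and 7 of 8 spermatocyte markers were lower by the call rule given below. Elongating spermatid markers summed to 4836 to 10971 CPM (counts-per-million units, relative to the scaled library size) in the 4 wild-type spermatocyte libraries, so they were not absent from that fraction, and to 27916 to 38095 CPM in the 3 wild-type round spermatid libraries. Ago1 had 0 CPM in all 7 null libraries against 2.77 to 4.47 CPM in the 7 wild-type libraries. The mean of Ago4 in the null was 38.2% of wild-type in spermatocytes and 66.6% in round spermatids, and that of Ago3 was 921% and 665%. These 2 genes are deleted only in part. The paper reports that the null still makes their mRNA, with premature stop codons. By its western blots of testis, AGO1, AGO3 and AGO4 protein were lost. The Ago3 values are thus transcript counts and not protein, and the cause of their rise was not tested.

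The 71 genes together took 1.09% to 1.93% of all counts of a library. In spermatocytes the share was 1.73% to 1.93% in wild-type, 1.59% to 1.76% in heterozygous and 1.53% to 1.9% in null libraries. In round spermatids it was 1.33% to 1.47% in wild-type, 1.17% to 1.58% in heterozygous and 1.09% to 1.44% in null libraries. The wild-type round spermatid libraries thus lay below every wild-type spermatocyte library.

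To compare genes with each other, CPM was divided by summed exon length in kilobases (CPM per kb), and the mean of the 7 wild-type libraries was taken. The median over the 71 genes was 38.5 CPM per kb, while the median over the 15073 protein-coding genes that passed the count filter was 2.54, and 66 of the 71 lay above that value. There were 11 genes above 100 CPM per kb, 41 between 10 and 100, 14 between 1 and 10, and 5 at or below 1. The 8 most abundant genes held 55.4% of the summed level of all 71.

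Rsph1, which encodes a radial spoke head protein, was the most abundant at 903 CPM per kb, with 1097 ± 187 (SD, n = 4) in wild-type spermatocytes and 643 ± 74.4 (SD, n = 3) in wild-type round spermatids. Dnaaf1, an assembly factor of dynein arms, stood at 604 CPM per kb, with 601 ± 43.9 in spermatocytes and 608 ± 53.9 in round spermatids. Cfap206, a protein at the base of a radial spoke, had 347 ± 28.4 and 314 ± 27.8 CPM per kb in the same fractions. Among the 8 highest were 3 tektins, filament-forming proteins of the doublet microtubules. Tekt1 had 317 ± 30.0 CPM per kb in spermatocytes and 330.5 ± 31.9 in round spermatids, so that Cfap206 and Tekt1, neighbours in the order, did not differ beyond their spread. Tekt2 had 252 ± 41.5 and 323 ± 39.6 CPM per kb, and Tekt4 had 167 ± 26.4 and 213 ± 12.6. Cfap36, a coiled-coil protein whose role in the axoneme is less defined, had 256 ± 18.1 in spermatocytes and 174 ± 18.2 in round spermatids, and Cfap298, an assembly factor, had 215 ± 14.3 and 171 ± 9.93.

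**Figure D1:**
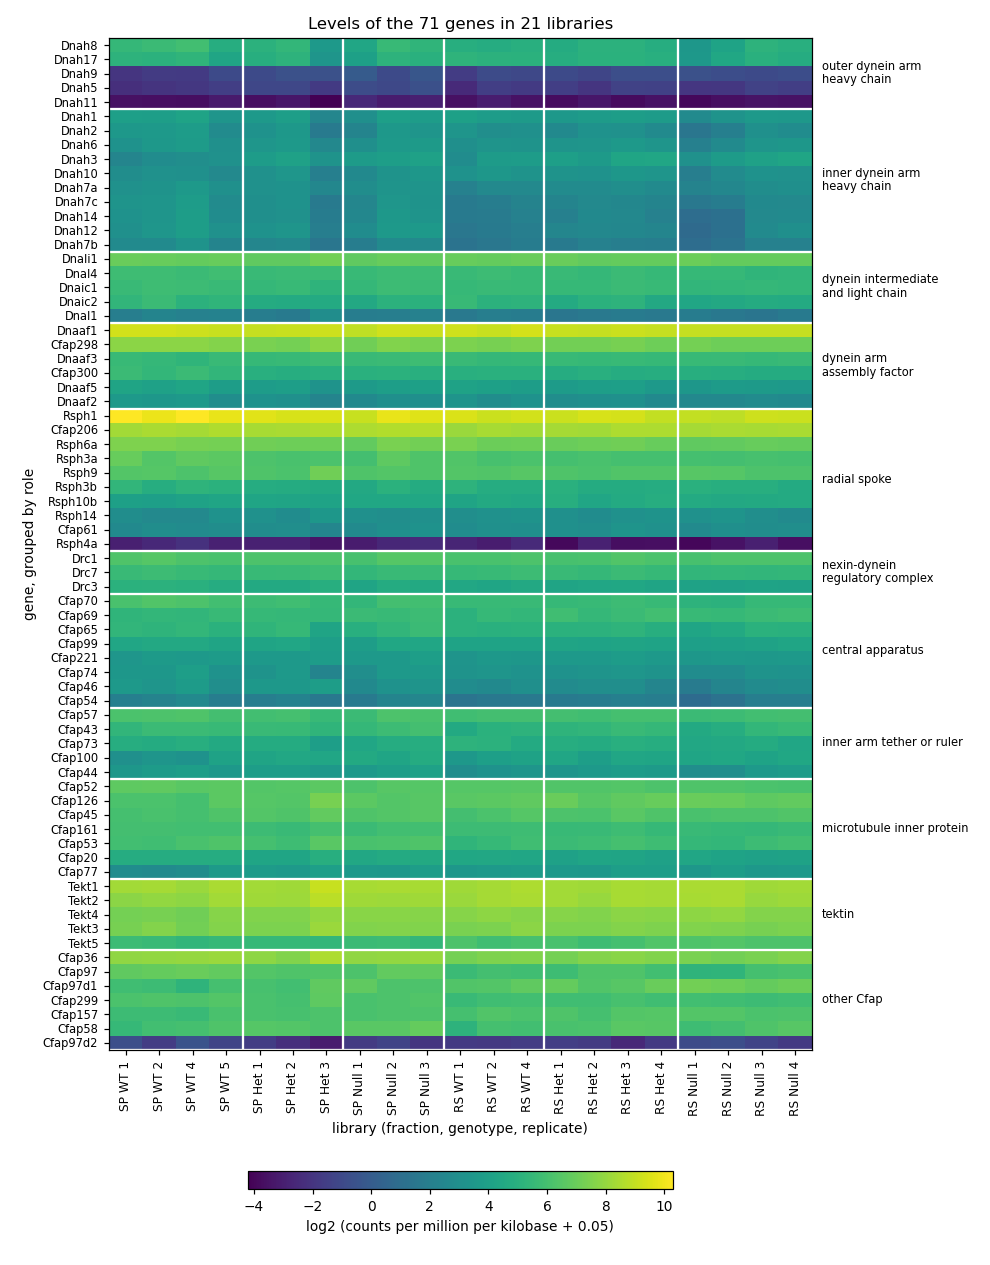
Levels of the 71 genes (rows, grouped by role in the axoneme) in the 21 libraries (columns, grouped by fraction and genotype), coloured by log2 of CPM per kb plus 0.05. Rsph1 and Dnaaf1 are bright in every column, while Dnah5, Dnah9, Dnah11, Rsph4a and Cfap97d2 are dark in all groups.

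The 5 least abundant genes were Cfap97d2 at 0.374 CPM per kb, Dnah9 at 0.338, Dnah5 at 0.222, Rsph4a at 0.11 and Dnah11 at 0.0421. Each of them has a relative in the list that was more abundant. For Cfap97d2 these were Cfap97 at 91.2 CPM per kb and Cfap97d1 at 70.3. Dnah5 and Dnah8 encode related outer-arm heavy chains, the former known from motile cilia of epithelia and the latter from sperm. Dnah8 had 11.2 to 59.2 CPM per kb over the 21 libraries and Dnah5 had 0.128 to 0.565, which is a ratio of 40.3 to 272 with a median of 101. Dnah9, Dnah11 and Dnah17 are related in the same way, with Dnah17 the form of the sperm tail. Dnah17 had 10.0 to 39.6 CPM per kb, Dnah9 had 0.207 to 0.903, and their ratio was 16.7 to 171 with a median of 62.4. Dnah11 rested on 1 to 37 counts per library, and in the 20 libraries with more than 3 counts Dnah17 was 135 to 1475 times as high, with a median of 736.

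Among the spoke head genes, Rsph6a, the testis form, had 111 to 180.2 CPM per kb, and Rsph4a, the form of epithelial cilia, had 0.0134 to 0.173 from 1 to 13 counts per library. In the 14 libraries with more than 3 counts of Rsph4a the ratio ran from 913 to 2189 with a median of 1581. In each of these 4 comparisons the sperm form was higher in 21 of 21 libraries, which covers both fractions and all 3 genotypes. The inner-arm heavy chains Dnah1 and Dnah6 were close to each other, with a ratio of 0.95 to 2.06. The outer-arm intermediate chains Dnaic1 and Dnaic2 were close as well, with Dnaic2 at 0.502 to 1.02 of Dnaic1.

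**Figure D2:**
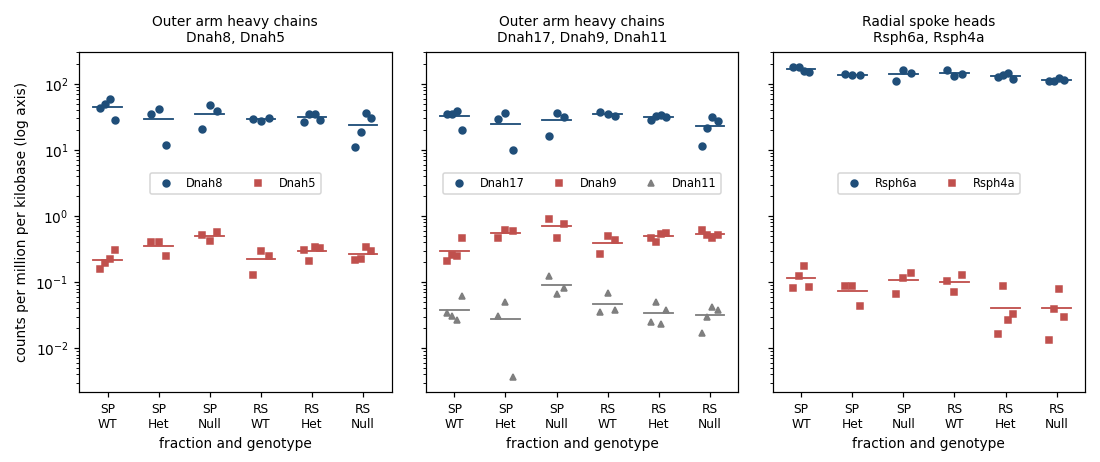
CPM per kb (log axis) of related dynein heavy chains and of related radial spoke head genes in each of the 21 libraries, with 1 point per library and a line at the mean of each group. Dnah8, Dnah17 and Rsph6a lie above Dnah5, Dnah9, Dnah11 and Rsph4a in every library.

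RFX factors are transcription factors of ciliary genes that bind the X-box, an inverted repeat built on the letters GTTGC and GCAAC. RefSeq promoter sequence (GRCm38.p6, 250 bases before to 50 after the start site) was matched for 59 of the 71 genes, leaving Cfap157, Cfap299, Cfap53, Cfap54, Cfap65, Cfap73, Cfap97, Dnaaf1, Dnah3, Rsph1, Rsph10b and Rsph4a without a sequence. Both strands of the 250 upstream bases were searched. GTTGC followed after 2 to 5 bases by GCAAC was found in 9 of the 59 (15.3%), against 119 of all 27025 promoters (0.44%), a 34.6-fold higher share. The promoters of Dnah7a, Dnah7b and Dnah7c, which are near copies of each other, held the same form of the repeat, and that of Dnah6 held its reverse complement. The stretches are printed because they carry a feature that the prefix rule did not use, with the repeat in capitals and up to 30 bases before and after it. The promoter of Cfap298 held 2 repeats. The stretches lie at chr16:90934994-90935067 and chr16:90934874-90934948 (minus strand) for Cfap298, chr16:44394742-44394798 (plus) for Cfap44, chr6:73221632-73221697 (minus) for Dnah6, chr1:53706799-53706871 (minus) for Dnah7a, chr1:46066799-46066852 (plus) for Dnah7b, chr1:46425419-46425491 (plus) for Dnah7c, chr11:114727356-114727418 (plus) for Dnaic2, chr4:126325689-126325747 (minus) for Tekt2 and chr17:25471524-25471589 (plus) for Tekt4.
Cfap298, upstream repeat: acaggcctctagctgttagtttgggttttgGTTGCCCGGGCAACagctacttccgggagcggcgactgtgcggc
Cfap298, repeat nearer the start site: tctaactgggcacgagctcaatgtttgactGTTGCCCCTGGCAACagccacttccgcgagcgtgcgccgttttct
Cfap44: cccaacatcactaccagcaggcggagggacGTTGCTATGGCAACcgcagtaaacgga
Dnah6: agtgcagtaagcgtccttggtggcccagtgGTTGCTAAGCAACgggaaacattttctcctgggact
Dnah7a: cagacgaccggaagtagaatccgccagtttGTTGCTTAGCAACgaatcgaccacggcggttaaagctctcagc
Dnah7b: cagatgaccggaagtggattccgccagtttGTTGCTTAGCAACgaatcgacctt
Dnah7c: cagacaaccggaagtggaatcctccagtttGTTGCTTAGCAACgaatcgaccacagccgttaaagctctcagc
Dnaic2: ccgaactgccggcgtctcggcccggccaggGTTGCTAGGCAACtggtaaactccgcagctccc
Tekt2: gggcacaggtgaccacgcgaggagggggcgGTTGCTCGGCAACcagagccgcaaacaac
Tekt4: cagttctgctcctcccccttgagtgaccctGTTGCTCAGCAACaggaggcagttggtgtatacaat

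The repeat ended 12 to 175 bases before the annotated start site. Genes with it had a median of 11.2 CPM per kb against 39.2 for the other matched genes, and they ranged from Dnah7b at 5.19 to Tekt2 at 282, the 3 copies of Dnah7 being the lowest. Other strings were searched in the same windows, and several overlap each other. GTTGCC was present in 30.5% of the 59 and 11.8% of all promoters, GTTGCCA in 20.3% and 4.19%, GTTGCCAT in 10.2% and 1.29%, and the full consensus X-box in 3.39% and 0.655%. The MYB site CAACTG was present in 22% and 12.6%, its looser form CAACNG, which contains it, in 50.8% and 32.3%, and the palindrome AACCGTTA in 0% and 0.152%. The CRE TGACGTCA was present in 1.69% and 1.77%, and its shorter form TGACGT in 3.39% and 7.29%. CCAAT was present in 39% and 37.5%, the GC box GGGCGG in 40.7% and 35.4%, the SOX site AACAAT in 3.39% and 10.9% and the TATA box TATAAA in 5.08% and 14.3%. These are matches of letters and do not show that a factor was bound.

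The comparison of fractions asks how axoneme transcripts differ between meiotic and haploid cells. In wild-type mice, 4 of the 71 genes rose and 12 fell from spermatocytes to round spermatids, and the genes that fell were led by inner-arm dynein heavy chains. A gene was called where edgeR's quasi-likelihood test gave a Benjamini-Hochberg adjusted p below 0.05 over all 20404 genes tested and the log2 fold change was beyond 0.5 in size, and by that rule 12.7% of all genes were higher and 11.4% lower. Set against that background, 12 of 71 was not far above it and 4 of 71 was below it. The count that rose depended on single libraries, being 10 without spermatocyte replicate 5, where 3413 of all genes were called higher against 2601, and 2 without any one of the other 6 libraries. The median log2 fold change (round spermatids over spermatocytes) was -0.15 over the 71 and 0.02 over all genes. All libraries of 1 fraction lay beyond all of the other for 3 higher and 23 lower members, where 16% of all genes were higher and 18.1% lower in that way. In bulk samples fewer cells of a type and less RNA per cell cannot be told apart, and purity, pooling and the mix of stages may differ between preparations. Among other cell types, 5 of 8 macrophage markers were called higher in round spermatids (summed 7.61 to 13.3 CPM in spermatocytes and 32.2 to 47.6 in round spermatids), as were 3 of 8 spermatogonia markers (41.2 to 50.9 and 62.3 to 71.3), 2 of 4 peritubular myoid markers (3.64 to 5.76 and 5.41 to 8.9) and 1 of 3 erythrocyte markers (1.59 to 6.54 and 4.03 to 8.47). For Sertoli cells 0 of 8 markers (164 to 456 and 210.5 to 479) and for Leydig cells 0 of 6 (3.44 to 11.3 and 3.37 to 9.83) were called. Of 4 tested markers of multiciliated epithelium, a cell type of the efferent ducts, 4 of 4 were above 0 with a median of 0.42 (summed 371 to 538 and 531 to 634), and 1 was called, Foxj1, which alone had 136 to 196 and 213 to 244 CPM. The other 2 of that list, Mcidas and Tmem212, were under the count filter at no more than 0.145 CPM in any library compared. Their part in the result was not tested.

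Of the 10 inner-arm heavy chains, 5 fell, 1 rose and the median was -0.54. Dnah12 (chr14:26693274-26891703, plus strand) had 100.1, 129, 173 and 104 CPM in the 4 wild-type spermatocyte libraries and 33.8, 39 and 47.7 CPM in the 3 wild-type round spermatid libraries. The groups did not overlap, and the log2 fold change was -1.62 ± 0.40 (SE, adjusted p = 0.00517), the largest fall of the 71. Dnah14 (chr1:181576559-181815774, plus strand) had 146, 165, 237 and 114 CPM against 52.5, 56.4 and 71.6 CPM. It too fell without overlap, by 1.42 ± 0.38 on the log2 scale (adjusted p = 0.00811), and it overlaps Lbr on the other strand. Dnah1, whose product is needed for the inner arms of sperm, had 202, 199, 243 and 134 CPM in spermatocytes and 214, 186 and 167 in round spermatids. The groups overlapped and the log2 fold change was 0.00 ± 0.27 (adjusted p = 0.998).

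Dnah7a, Dnah7b and Dnah7c are near copies on chromosome 1 that share 54.2%, 40% and 61.6% of their 31-base words with other genes, so reads may have been split among them and they are not independent. Dnah7c had 123, 127, 177 and 85.7 CPM in spermatocytes and 41.7, 48.6 and 60.4 CPM in round spermatids, a log2 fold change of -1.31 ± 0.31 (adjusted p = 0.00371). Dnah7b had 129.7, 130.0, 190.5 and 97.9 CPM against 48.7, 57.6 and 71.4, with -1.17 ± 0.29 (adjusted p = 0.00557). Dnah7a had 111, 118, 161 and 106 CPM against 56.3, 78.2 and 78.1, with -0.77 ± 0.19 (adjusted p = 0.00536). In all 3 copies every round spermatid library lay below every spermatocyte library. Dnah3, an inner-arm chain, went the other way, with 75.6, 101, 109.8 and 124 CPM in spermatocytes and 102, 191 and 204 in round spermatids. It rose by 0.73 ± 0.25 (adjusted p = 0.0377), although the lowest round spermatid library lay within the spermatocyte range, and it overlaps Lyrm1 on the other strand.

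None of the 5 outer-arm heavy chains was called. Dnah8 had 1169.8, 1353, 1587 and 763 CPM in spermatocytes and 788, 746 and 825 in round spermatids, with a log2 fold change of -0.59 ± 0.36 (adjusted p = 0.245). The spermatocyte libraries spread over a wide range, replicate 5 being lowest, and reached into that of round spermatids. Dnah17 had 571, 569, 638 and 328 CPM against 597, 556 and 534, with 0.14 ± 0.33 (adjusted p = 0.786). The 5 intermediate and light chains had fold changes of -0.30 to 0.05 and none was called. Dnaic1 had 135, 152, 150.0 and 136 CPM against 127, 140.1 and 131 (-0.07 ± 0.11, adjusted p = 0.7). Dnaic2 had 183, 231, 161 and 175 CPM against 213, 160.4 and 165 (-0.01 ± 0.17, adjusted p = 0.963). The libraries of both fractions interleaved for Dnaic1 and Dnaic2. Dnal1, a light chain of outer arms, had 27.8, 34.5, 30.6 and 32.3 CPM against 21.9, 27.4 and 24.8, which did not overlap but did not pass (-0.30 ± 0.21, adjusted p = 0.315). Dnali1, a light intermediate chain of inner arms, had 275, 264, 253 and 261 CPM against 263, 255 and 276 (0.05 ± 0.13, adjusted p = 0.803).

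Of the 6 assembly factors, Cfap300 fell, from 80.4, 68.2, 81.5 and 63.4 CPM in spermatocytes to 48.9, 51.1 and 50.5 in round spermatids, without overlap (-0.50 ± 0.12, adjusted p = 0.0041). Dnaaf1, the most abundant of them, had 1801, 1798, 1638 and 1549 CPM against 1729, 1557 and 1860.2, and its groups overlapped (0.06 ± 0.11, adjusted p = 0.728). Of the 10 radial spoke genes, Rsph1 fell, from 1714, 1309, 1741 and 1259 CPM to 987, 783 and 877, without overlap (-0.72 ± 0.17, adjusted p = 0.00371), and AC154652.1 lies over it on the other strand. The nexin-dynein regulatory complex is the link between doublets, and none of its 3 genes was called. Drc1, its scaffold, had 216, 241, 205 and 192 CPM against 187, 191 and 203 (-0.10 ± 0.12, adjusted p = 0.577), and Drc3 stayed under the fold threshold at -0.48 ± 0.13 (adjusted p = 0.0106).

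Among the 8 central apparatus genes all fold changes were below 0 and 2 were called. Cfap54 fell from 60.5, 71.5, 87.9 and 54.9 CPM to 37.2, 43.9 and 46.1 (-0.66 ± 0.23, adjusted p = 0.0411). Cfap70 fell from 299, 347, 323 and 253 CPM to 201, 206 and 213 (-0.52 ± 0.15, adjusted p = 0.0128). Neither gene's groups overlapped, and Cfap70 shares its locus with 7330404K18Rik on the other strand. Cfap43 and Cfap44 tether inner dynein motor domains, and Cfap43 had 286, 356, 361 and 339 CPM in spermatocytes against 174, 233 and 254 in round spermatids, a fall of 0.57 ± 0.19 on the log2 scale (adjusted p = 0.0303). It overlaps 5 annotated genes, 2 of them on the other strand. Cfap44 had 93.9, 115, 125 and 97.1 CPM against 62.4, 77.6 and 86, which did not overlap either but did not pass (-0.47 ± 0.19, adjusted p = 0.0705).

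The tektins had 5 of 5 fold changes above 0 in wild-type mice, with a median of 0.39 and 1 called, whereas in heterozygous mice 2 of 5 were above 0 with a median of -0.13 and in null mice 3 of 5 with a median of 0.08. Tekt5 (chr16:10357948-10395490, minus strand), a tektin of the sperm flagellum, rose from 96.4, 89.2, 72.8 and 82.1 CPM to 138, 105 and 122 without overlap (0.56 ± 0.14, adjusted p = 0.00571). Tekt4 had 314, 321, 291 and 411 CPM against 409, 455 and 414 and was under the fold threshold (0.39 ± 0.14, adjusted p = 0.0474). Tekt2 had 420.5, 470.2, 433 and 593 CPM against 533, 625 and 682 (0.40 ± 0.17, adjusted p = 0.0865). In Tekt2 and Tekt4 spermatocyte replicate 5 was the highest of its group and entered the round spermatid range. Tekt1 and Tekt3 differed by 0.10 ± 0.16 (adjusted p = 0.687) and 0.13 ± 0.16 (adjusted p = 0.593). Of the 7 other microtubule inner proteins, Cfap77 rose from 18.9, 17.5, 19.6 and 33.8 CPM to 28.7, 33 and 34.6, with overlap from spermatocyte replicate 5 (0.55 ± 0.20, adjusted p = 0.0448).

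In the remaining Cfap genes, Cfap97 (chr8:46151771-46195590, plus strand) fell from 562, 617, 652 and 583 CPM to 262, 321 and 296, and its related gene Cfap97d1 (chr11:101984279-101992264, plus strand) rose from 45.4, 43, 29.9 and 52.1 CPM to 65.9, 69.4 and 87. Neither overlapped between fractions. The log2 fold change of Cfap97 was -1.0 ± 0.19 (adjusted p = 0.00104), the smallest adjusted p of the 71, and that of Cfap97d1 was 0.84 ± 0.21 (adjusted p = 0.00581). Cfap97 overlaps 3 other annotated genes, 1 of them on the other strand, and Cfap97d1 overlaps Dusp3 on the other strand. Cfap36 fell from 645, 685, 714 and 763 CPM to 419, 498 and 511 (-0.52 ± 0.18, adjusted p = 0.0329).

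With the 3 outlier libraries added back, 0 of the 71 were called in this comparison and 0 of all genes. Without spermatocyte replicate 4 the calls went from 16 to 9 and those over all genes from 4934 to 3394, and without spermatocyte replicate 5 they went to 23 and 6398. Elongating spermatid markers summed to 7856 CPM in the wild-type round spermatid outlier and to 18535 and 19151 CPM in the spermatocyte outliers.

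**Figure D3:**
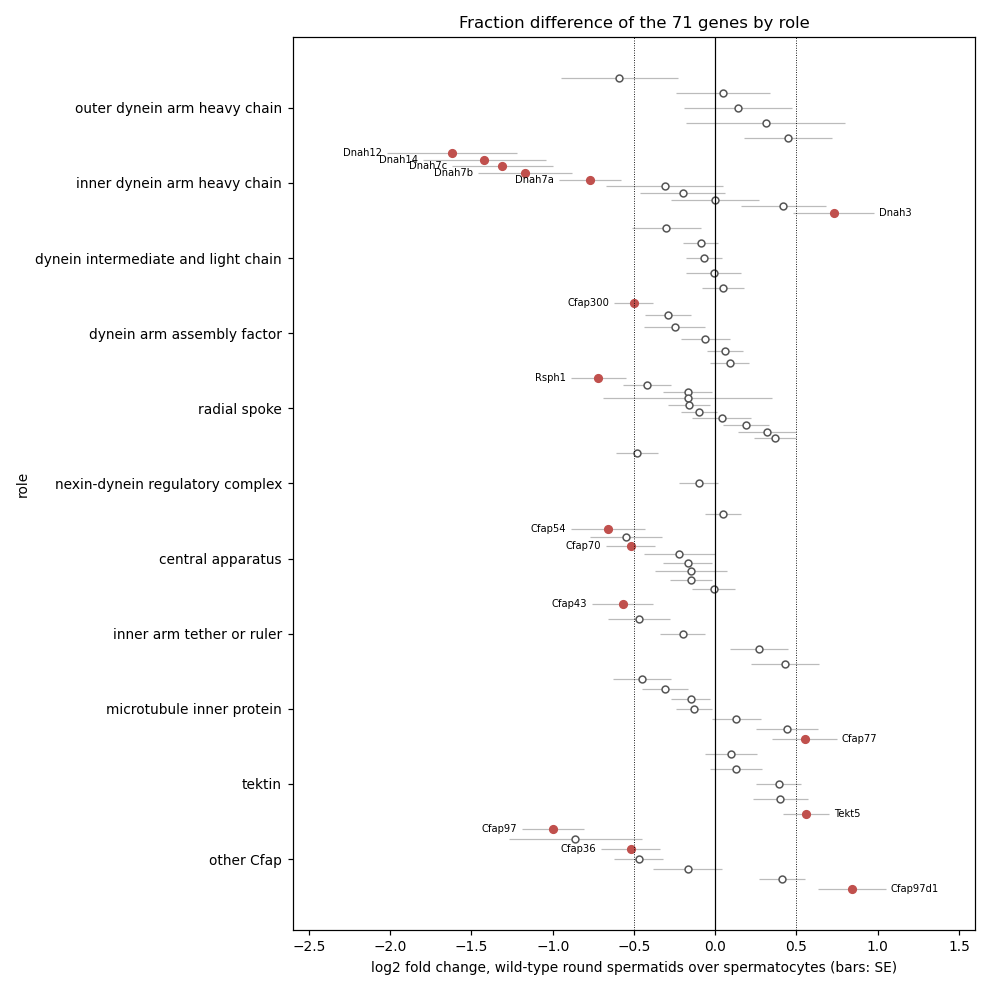
Log2 fold change of each gene in wild-type mice (round spermatids over spermatocytes), with bars of 1 standard error, grouped by role, where red filled points are called genes and dotted lines mark -0.5 and 0.5. Inner-arm heavy chains reach -1.62 and all tektins lie above 0 in this genotype.

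Genes that act with these in building or driving the axoneme, listed under other names, were followed in the same fit. In that fit 12.7% of all genes were called higher and 11.4% lower, and some of the list counts lie near these shares. Of 28 tested genes of intraflagellar transport, which carries subunits into the growing cilium, 0 rose and 11 fell with a median of -0.28, among them Ift80 at -1.51 (adjusted p = 0.00062) and Dync2h1, the retrograde motor, at -1.29 (adjusted p = 0.00659). Of 10 further dynein assembly factors, 0 rose and 6 fell with a median of -0.62, led by Dyx1c1 at -1.88 (adjusted p = 0.000482) and Pih1d3 at -1.41 (adjusted p = 0.000654). Of 17 docking and dynein-bound genes 3 fell, among them Ccdc39, part of the ruler that spaces the arms, at -1.55 (adjusted p = 0.00185). Of 14 further central apparatus genes 1 rose and 2 fell, and of 7 further nexin-dynein genes 1 fell, Iqcg at -0.95 (adjusted p = 0.000566).

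In the other lists more genes were called higher than lower, although most were not called, beside the same 12.7% and 11.4% of all genes. Of 9 further spoke genes 3 rose and 0 fell with a median of -0.03, the 3 being Dydc2 at 1.92, Morn3 at 1.40 and Ropn1 at 0.99. Of 12 tubulin genes 5 rose and 0 fell with a median of 0.41, led by Tuba1c at 2.02, and of 14 tubulin modifying enzymes 4 rose and 1 fell, with a median of 0.25, with Ttll8, a glycylase, at 1.23 and Agbl2 at -0.97. Of 12 regulators of ciliary or spermatid genes 4 rose and 1 fell with a median of 0.34. Rfx1 was at 0.86, Rfx3 at 0.77, Foxj1 at 0.63 and Sox30 at 0.56, while Mybl1, a regulator of meiotic cells, was at -1.42, and Rfx2 was not called at 0.27.

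In heterozygous mice 1 of the 71 rose and 1 fell from spermatocytes to round spermatids, where 7.07% of all genes were called higher and 1.82% lower. The gene that rose was Tekt5, from 81.5, 82.6 and 74.8 CPM in the 3 spermatocyte libraries to 125, 102, 118 and 151 CPM in the 4 round spermatid libraries (0.67 ± 0.14, adjusted p = 0.0052). Cfap46, of the central apparatus, fell from 106, 104 and 136 CPM to 62.4, 71.6, 70.1 and 48.3 (-0.85 ± 0.22, adjusted p = 0.0148). Neither overlapped between fractions. Beside these, 8 of 8 elongating spermatid, 5 of 8 macrophage, 2 of 3 erythrocyte and 1 of 4 peritubular markers were called higher and 1 of 6 Leydig markers was called lower, with 0 called in the other marker lists. The part of these markers in the result was not tested.

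In null mice 2 rose and 8 fell, where 11.7% of all genes were called higher and 5.42% lower. Markers of other cells were called higher here too, namely 4 of 8 Sertoli markers (median 1.51, summed 97.6 to 187 CPM in spermatocytes and 265 to 484 CPM in round spermatids), 5 of 8 macrophage markers (11 to 24.9 and 34.5 to 68.2 CPM), 3 of 3 erythrocyte markers (0.992 to 2.25 and 5.25 to 9.76 CPM), 1 of 4 peritubular and 1 of 8 spermatogonia markers, with 0 of 6 Leydig and 0 of 4 multiciliated markers. Of the germ cell lists, 8 of 8 elongating spermatid markers were called higher, 0 of 8 round spermatid markers were called and 4 of 8 spermatocyte markers were called lower. Their part in the result was not tested. Tekt5 had 91.9, 96.2 and 77.2 CPM in the 3 spermatocyte libraries and 143, 153, 139 and 135 CPM in the 4 round spermatid libraries (0.72 ± 0.14, adjusted p = 0.00174). Tekt5 thus rose in each genotype. Cfap97d1 rose from 87.5, 61.6 and 60.6 CPM to 118, 111, 94.2 and 105 (0.66 ± 0.22, adjusted p = 0.0375), again without overlap. Cfap97 fell from 397, 579 and 565 CPM to 195, 203, 341 and 368 (-0.87 ± 0.19, adjusted p = 0.00281). The falls of Dnah12 (-1.17 ± 0.38, adjusted p = 0.0346) and Dnah14 (-1.09 ± 0.36, adjusted p = 0.0386) came with round spermatid values for Dnah12 of 20.6, 25.7, 79.1 and 96 CPM, which form a low and a high pair, against 84.9, 146 and 145 CPM in spermatocytes. The others that fell were Cfap36, Cfap43, Cfap53, Dnah5 and Dnah11, by 0.53 to 1.45 on the log2 scale. Dnah5 and Dnah11 are among the least abundant members, and Dnah11 rested on 1 to 37 counts per library, so its fall is limited by depth. Calls in the null depended on single libraries, being 2 without round spermatid replicate 1, round spermatid replicate 2 or spermatocyte replicate 3, 3 without spermatocyte replicate 2 and 17 without spermatocyte replicate 1. Calls over all genes moved too, from 3498 to 2164, 2392 and 1248 in the first 3 of these, 2187 in the next and 4129 in the last.

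Over all 21 libraries the dynein heavy chains ranged more widely than the Cfap, Tekt and Rsph genes, though not within every group. The summed CPM of the 15 Dnah genes ran from 1063 in null round spermatid replicate 1 to 4047 in wild-type spermatocyte replicate 4, which is 3.81-fold. For the 31 Cfap genes the range was 4857 to 7348 CPM (1.51-fold), for the 5 Tekt genes 1517 to 2805 CPM (1.85-fold) and for the 8 Rsph genes 1437 to 2871 CPM (2-fold). Within the wild-type spermatocytes alone the Dnah sum was 2181 to 4047 CPM, replicate 5 being lowest. Within the wild-type round spermatids it was 2344 to 2474 CPM, a narrower range than that of the Cfap genes (4857 to 5691), the Tekt genes (1862 to 2193) or the Rsph genes (1639 to 1979). Heterozygous spermatocyte replicate 3 had 1169.9 CPM, against 2764 and 3277 CPM in the others of its group, and the highest tektin sum of all, 2805 CPM.

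The 15 dynein heavy chains, Cfap54 and Cfap61 were the 17 genes with over 10 kb of exon, and length was set beside these values. In the fraction comparison of wild-type mice, 1 of the 17 long genes rose and 6 fell, where of all 1405 protein-coding genes over 10 kb 167 rose and 214 fell. Of the other 54 members 3 rose and 6 fell, where of 13668 shorter protein-coding genes 1694 rose and 1721 fell. Spearman's rho between exon length and log2 fold change across the 71 genes was -0.28 in wild-type, 0.06 in heterozygous and -0.60 in null mice, and across protein-coding genes it was -0.09, 0.11 and -0.10, as a description over genes that share libraries. In null mice 0 of the 17 long genes had a fold change above 0 and their median was -0.55, while 599 of the 1405 protein-coding genes of that length were above 0 and their median was -0.08. RNA integrity per library was not analysed here, and its part in the result was not tested.

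**Figure D4:**
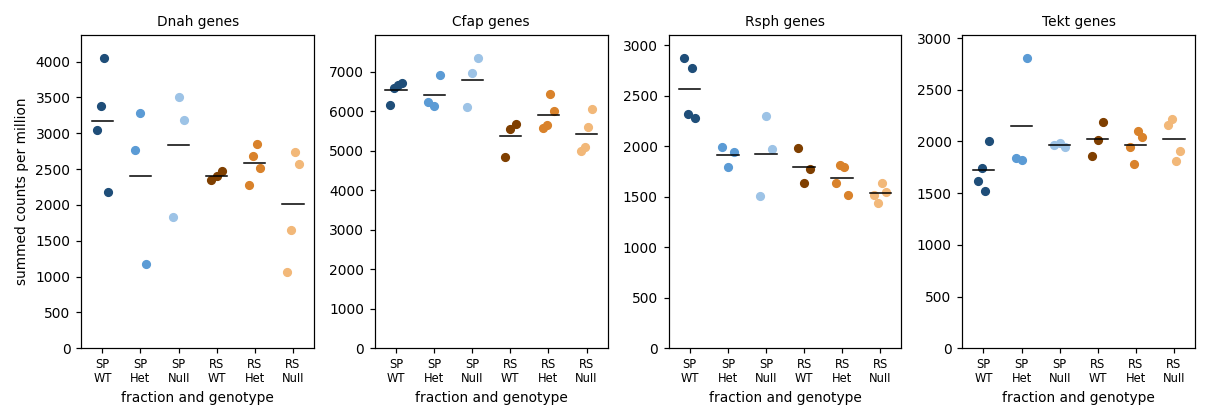
Summed CPM of the Dnah, Cfap, Rsph and Tekt genes in each of the 21 libraries, grouped by fraction and genotype, with 1 point per library, a bar at the group mean and axes from 0. The Dnah sums spread over 3.81-fold and include the low values 1063 and 1169.9.

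The comparison of null with wild-type mice asks whether loss of the Argonaute genes changed these transcripts. In spermatocytes 0 of the 71 were called by edgeR, where 0.0411% of the 19450 genes tested were. At an unadjusted p below 0.05 there were 10 higher and 4 lower members, where 15.9% of all genes were higher and 14.5% lower, and DESeq2 called 6 higher and 0 lower, where 9.08% and 6.48% of all genes were. Libraries did not overlap for 10 higher and 7 lower members, with 13.6% and 14.5% of all genes. The median log2 fold change (null over wild-type) was -0.05 over the 71 and -0.03 over all genes.

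Dnah3 had 75.6, 101, 109.8 and 124 CPM in wild-type and 191, 219 and 248 CPM in null spermatocytes, with a log2 fold change of 1.11 ± 0.21 (edgeR adjusted p = 0.0599, DESeq2 adjusted p = 0.000949). Cfap100, an inner-arm factor that overlaps Zxdc on the other strand, had 34.7, 42.3, 37.7 and 73.8 CPM against 99.4, 81.5 and 109 (1.05 ± 0.25, edgeR adjusted p = 0.0599, DESeq2 adjusted p = 0.0047). Cfap58, known from the sperm tail, had 158, 208, 226 and 276 CPM against 343, 343 and 407 (0.76 ± 0.18, edgeR adjusted p = 0.0599, DESeq2 adjusted p = 0.00749). In all 3 genes every null library lay above every wild-type library, and wild-type replicate 5 lay nearest to the null. The rarely expressed Dnah5 had 2.5, 3.01, 3.49 and 4.75 CPM against 7.94, 6.61 and 8.84 (1.18 ± 0.28), and Dnah9 had 3.31, 4.06, 3.97 and 7.38 CPM against 14.4, 7.47 and 11.9 (1.26 ± 0.32), both with an edgeR adjusted p of 0.0599. Dnah11, another outer-arm heavy chain, had 0.501, 0.451, 0.388 and 0.876 CPM against 1.77, 0.945 and 1.17, also without overlap (1.19 ± 0.55, adjusted p = 0.162). All 3 stayed far under their relatives Dnah8 and Dnah17 in the null too.

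On the lower side, Cfap300 had 80.4, 68.2, 81.5 and 63.4 CPM in wild-type and 51, 53.3 and 49.1 in null spermatocytes (-0.50 ± 0.15, adjusted p = 0.0691). Rsph1 had 1714, 1309, 1741 and 1259 CPM against 751, 1243 and 1060.4 (-0.54 ± 0.18, adjusted p = 0.0777). Drc3 had 151, 159, 143 and 122 CPM against 87, 118 and 108 (-0.44 ± 0.16, adjusted p = 0.102). These groups did not overlap, though for Rsph1 by a margin of 1243 against 1259 CPM.

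Markers of other stages moved beside these values. At an unadjusted p below 0.05, 8 of 8 round spermatid markers were higher in null spermatocytes (median 0.69, summed 907 to 1583 CPM in wild-type and 1669 to 1941 CPM in null) and 5 of 8 spermatocyte markers were lower (median -0.55, summed 910.2 to 1773 and 600.0 to 893 CPM), with 0 called. Macrophage markers were higher for 3 of 5 tested (median 1.13, 7.61 to 13.3 and 11 to 24.9 CPM) and spermatogonia markers for 4 of 8 (median 0.48, 41.2 to 50.9 and 47.9 to 80.9 CPM). Of 6 markers of multiciliated epithelium 4 were tested, Mcidas and Tmem212 being under the count filter. These 4 were above 0 and 2 passed (median 0.57). The sums of the list, 371 to 538 CPM in wild-type and 611 to 672 CPM in null, did not overlap. They include Foxj1, which is also among the regulators of ciliary or spermatid genes given above. Of 8 elongating spermatid markers (median 0.22), 8 Sertoli markers (median -0.74, all below 0, 164 to 456 and 97.6 to 187 CPM), 6 Leydig markers and 4 peritubular markers 0 passed in either direction, and the 1 erythrocyte marker tested was lower (-1.38). Their part in the result was not tested. Axoneme genes listed under other names had 0 calls in the null in either fraction. At an unadjusted p below 0.05 in spermatocytes 15.9% of all genes were higher and 14.5% lower. Tubulin modifying enzymes had 8 of 14 higher and 1 lower (median 0.35), and regulators 6 of 12 and 2. Of further assembly factors 0 of 10 were higher and 4 lower (median -0.40), and of intraflagellar transport genes 1 of 28 and 7. Central apparatus genes had 4 of 14 higher and 1 lower, docking genes 3 of 17 and 1, and tubulins 1 of 12 and 3. Of nexin-dynein genes 2 of 7 and of spoke genes 1 of 9 were higher. In round spermatids 11.3% of all genes were lower. There 4 of 10 further assembly factors (median -0.24), 4 of 28 intraflagellar transport genes and 0 to 2 of each other list were lower. Without wild-type replicate 5, 8 of 70 members tested were called higher and 2 lower, with Dnah3 among them, and 4526 of all genes were called, 2664 of them higher and 1862 lower.

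In round spermatids 0 of the 70 members tested were called between null and wild-type by edgeR, Rsph4a being under the count filter, where 0.0518% of the 19310 genes tested were called. At an unadjusted p below 0.05 there were 2 higher and 19 lower members, where 8.01% of all genes were higher and 11.3% lower. DESeq2 called 1 higher and 1 lower, where 1.64% and 2% of all genes were called. Libraries did not overlap for 3 higher and 18 lower members, with 9.9% and 10% of all genes. The median was -0.09 over members and 0.03 over all genes. The 19 lower members were 5 of 6 assembly factors, 2 of 5 intermediate and light chains, 3 of 10 inner-arm and 1 of 5 outer-arm heavy chains, 2 of 3 nexin-dynein genes, 2 of 7 microtubule inner proteins, 2 of 9 radial spoke genes, 1 of 8 central apparatus genes and 1 of 5 inner-arm tethers or rulers.

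Dnaic2 (chr11:114727408-114757889, plus strand), an outer-arm intermediate chain, had 213, 160.4 and 165 CPM in wild-type and 95.8, 106, 122 and 114 CPM in null round spermatids, with no overlap and a log2 fold change of -0.75 ± 0.17 (edgeR adjusted p = 0.0774, DESeq2 adjusted p = 0.00435). Dnaaf2, an assembly factor that shares 39.3% of its 31-base words with other genes, 21.6% with the overlapping gene model Gm49383, had 32.7, 24.9 and 30.2 CPM against 20.1, 19.5, 23.4 and 21.7 (-0.50 ± 0.14, adjusted p = 0.101). Of the 6 assembly factors 5 were lower at an unadjusted p below 0.05 and 0 were called, with Dnaaf5 at -0.43 (adjusted p = 0.115), Cfap298 at -0.32, Dnaaf1 at -0.25 and Cfap300 at -0.23, while Dnaaf3 was at 0.02. Dnah17, the outer-arm heavy chain of sperm, had 597, 556 and 534 CPM against 187, 343, 507 and 447, with null replicates 1 and 2 far below the others (-0.63, adjusted p = 0.171). Cfap73, an inner-arm factor that overlaps Ddx54 on the other strand, had 33.2, 31.4 and 23.1 CPM against 20.9, 21.7, 24.1 and 19.4, with overlap (-0.48 ± 0.14, adjusted p = 0.103).

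On the higher side, Cfap97d1 had 65.9, 69.4 and 87 CPM in wild-type and 118, 111, 94.2 and 105 CPM in null round spermatids, with no overlap (0.50 ± 0.15, edgeR adjusted p = 0.109, DESeq2 adjusted p = 0.0403). Cfap100 had 46.6, 64.8 and 74.3 CPM against 81.9, 90.4, 74.9 and 88 (0.40 ± 0.16, adjusted p = 0.187), the lowest null library being just above the highest wild-type library. Cfap97d2 had 1.19, 1.14 and 1.29 CPM against 2.34, 2.49, 1.7 and 1.16, with overlap (0.64 ± 0.33, adjusted p = 0.293). Beside these values, 5 of 8 round spermatid markers were higher at an unadjusted p below 0.05 (median 0.37, summed 1266 to 1827 CPM in wild-type and 1807 to 2191 CPM in null), 2 of 8 spermatocyte markers were lower (median -0.33, summed 548 to 660.0 and 366 to 553 CPM) and 5 of 8 macrophage markers were higher (median 1.02, summed 32.2 to 47.6 and 34.5 to 68.2 CPM). Multiciliated markers were higher for 1 of 4 (median 0.05), and 0 passed in the other lists. Their part in the result was not tested.

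The difference between the null effects in the 2 fractions was tested as an interaction, and 0 of the 71 and 0% of all genes were called. At an unadjusted p below 0.05 there were 1 higher and 4 lower members, where 3.28% of all genes were higher and 2.67% lower. The 4 were Dnah11 at -1.76 ± 0.69, Dnah5 at -0.90 ± 0.40, Dnah9 at -0.82 ± 0.38 and Dnah3 at -0.75 ± 0.36, and the higher member was Cfap97d2 at 1.46 ± 0.58. Each had an adjusted p of 0.807, so the null effects in spermatocytes and round spermatids were not shown to differ.

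**Figure D5:**
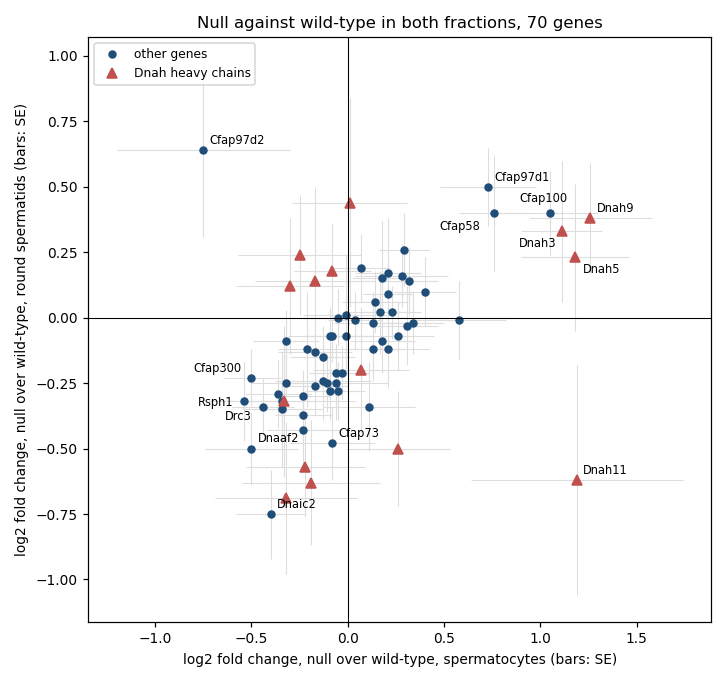
Log2 fold change of null over wild-type in spermatocytes (horizontal axis) and in round spermatids (vertical axis) for the 70 genes tested in both, with bars of 1 standard error and triangles for Dnah genes. Dnah3, Dnah5, Dnah9, Dnah11 and Cfap100 lie to the right at 1.05 to 1.26, Dnaic2 lies lowest at -0.75, and none was called in either fraction.

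The heterozygous comparisons used the same wild-type libraries as the null comparisons. In spermatocytes 0 members were called between heterozygous and wild-type by edgeR, where 0.0257% of all genes were. At an unadjusted p below 0.05 there were 12 higher and 9 lower members, where 14.9% of all genes were higher and 9.77% lower, and DESeq2 called 2 higher and 3 lower, where 3.53% and 2.79% of all genes were called. Dnah3 had 204, 239.6 and 137 CPM in heterozygous spermatocytes, above the wild-type range of 75.6 to 124 (0.94 ± 0.21, adjusted p = 0.124). Cfap100 had 78.4, 91.4 and 84.3 CPM, above 34.7 to 73.8 (0.87 ± 0.25, adjusted p = 0.124), and Dnah9 had 7.39, 9.72 and 9.55 CPM, just above the wild-type range of 3.31 to 7.38 (0.94 ± 0.32, adjusted p = 0.13). Dnaic2 had 118, 115 and 117 CPM, below 161 to 231 (-0.65 ± 0.18, adjusted p = 0.124). Cfap300 had 49.5, 45.4 and 49.5 CPM, below 63.4 to 81.5 (-0.57 ± 0.15, adjusted p = 0.124), and Cfap97 had 435, 412 and 424 CPM, below 562 to 652 (-0.48 ± 0.15, adjusted p = 0.125). Beside these values, at an unadjusted p below 0.05, 8 of 8 round spermatid markers were higher (median 0.76, summed 907 to 1583 CPM in wild-type and 1437 to 2654 CPM in heterozygous libraries) and 4 of 8 spermatocyte markers were lower (median -0.70, 910.2 to 1773 and 706 to 962 CPM). Spermatogonia markers were higher for 4 of 8, 1 of them called (median 0.87, 41.2 to 50.9 and 69 to 95.2 CPM), multiciliated epithelium markers for 2 of 4 (median 0.44, 371 to 538 and 570.2 to 683 CPM), macrophage markers for 2 of 5 (median 0.51) and Leydig markers for 2 of 6 (median 1.07), and 0 passed for elongating spermatid, Sertoli, peritubular and erythrocyte markers. Their part in the result was not tested.

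In round spermatids 0 members were called between heterozygous and wild-type, where 0.0207% of all genes were. At an unadjusted p below 0.05 there were 2 higher and 2 lower members, where 4.97% of all genes were higher and 3.91% lower, and DESeq2 called 0. Cfap58 had 248, 252, 336 and 322 CPM against 124, 227 and 213 in wild-type, with no overlap (0.60 ± 0.22, adjusted p = 0.551). Cfap69, of the central apparatus, was at 0.35 ± 0.14 and Cfap100 at 0.33 ± 0.16. Dnaic2 had 115, 152, 164 and 108 CPM against 213, 160.4 and 165, with overlap (-0.43 ± 0.17, adjusted p = 0.551). Cfap20, an inner junction protein, was at -0.26 ± 0.11 and Cfap298 at -0.21 ± 0.11. Beside these values, 4 of 8 round spermatid markers (median 0.27), 2 of 8 macrophage, 1 of 8 spermatogonia, 1 of 4 multiciliated and 1 of 3 erythrocyte markers were higher at an unadjusted p below 0.05, and 2 of 8 spermatocyte and 1 of 5 Leydig markers were lower. The part of these markers was not tested.

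Between null and heterozygous mice 0 members were called in either fraction, the share of all genes called being 0.00514% in spermatocytes and 0.00518% in round spermatids. In spermatocytes 1 member was higher and 1 lower at an unadjusted p below 0.05, where 1.14% of all genes were higher and 2.6% lower. These were Dnah11, with 1.77, 0.945 and 1.17 CPM in null against 0.437, 0.723 and 0.0533 in heterozygous libraries (1.63 ± 0.61, adjusted p = 0.974), and Cfap46, with 59.3, 82 and 91.9 CPM against 106, 104 and 136 (-0.59 ± 0.22, adjusted p = 0.974). Cfap58 at 0.31, Cfap97 at 0.26, Rsph9, a spoke head gene, at -0.31 and Tekt2 at -0.24 had the same adjusted p. All 17 members longer than 10 kb had a fold change above 0 here, with a median of 0.24, while 737 of 1379 protein-coding genes of that length were above 0 with a median of 0.03. There was a rho with length of 0.64 across members and 0.15 across protein-coding genes, and the low Dnah sum of heterozygous replicate 3 enters this comparison. Beside these values, 4 of 6 Leydig markers were lower in null at an unadjusted p below 0.05 (median -1.74, 0 of 6 above 0, summed 6.45 to 25 CPM in heterozygous and 4.72 to 7.42 CPM in null libraries), as were 1 of 8 Sertoli markers (median -0.85, 0 of 8 above 0, 92 to 479.8 and 97.6 to 187 CPM) and 1 of 8 spermatogonia markers (median -0.52), and 0 passed in the other lists. The part of these markers was not tested.

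In round spermatids 2 members were higher and 5 lower in null than in heterozygous mice at an unadjusted p below 0.05, where 3.69% of all genes were higher and 3.98% lower. Cfap97d2 was at 0.78 ± 0.30 and Cfap97d1 at 0.34 ± 0.14, both with an adjusted p of 0.631, and Tekt5 was at 0.19 ± 0.12 (adjusted p = 0.702). Dnah10 was at -0.49 ± 0.20 (adjusted p = 0.639), and Dnah1 at -0.41 ± 0.18 and Cfap73 at -0.30 ± 0.13 both had an adjusted p of 0.647. Among the 17 long members 1 had a fold change above 0 and their median was -0.28, while 393 of 1384 protein-coding genes of that length were above 0 with a median of -0.13, and rho with length was -0.56 across members and -0.24 across protein-coding genes. Null round spermatid replicates 1 and 2, with Dnah sums of 1063 and 1657 CPM, enter this comparison. Markers higher in null at an unadjusted p below 0.05 were 2 of 8 macrophage (median 0.52, 7 of 8 above 0, summed 27.9 to 74.1 CPM in heterozygous and 34.5 to 68.2 CPM in null libraries), 1 of 8 Sertoli (median 0.25, 8 of 8 above 0, 126 to 414 and 265 to 484 CPM) and 1 of 8 round spermatid markers (median 0.10), and 0 passed in the other lists, spermatocyte markers having a median of -0.23 with 0 of 8 above 0. The part of these markers was not tested either.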

How the data were processed

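Poly(A) RNA of enriched germ cell fractions was made into directional libraries, and reads were trimmed with Trim Galore and aligned with STAR to mm10 per the labels' processing notes. The authors deposited raw gene counts for 24 libraries, with whole numbers per Ensembl gene and no normalization. Program versions, the annotation release and the strand setting of the counts are not given in the sources used here, and with a wrong or absent strand setting genes that overlap on opposite strands would share reads. All 55536 identifiers matched GENCODE M21. The 3 libraries marked as outliers in the labels were left out. Replicates are separate cell preparations from pooled mice.

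Counts were tested with edgeR 4.0.16 (R 4.3.3), using TMM scaling, a filter of 10 counts in 3 libraries and quasi-likelihood tests with Benjamini-Hochberg adjustment over all genes tested. Genotypes were compared within each fraction with a shared estimate of the spread, and fractions and the interaction in 1 fit of 21 libraries. DESeq2 1.42.0, RLE factors, no filter, only the groups compared, outliers added back, a library number term, replicate blocks and the leaving out of each library were the alternatives. CPM used TMM-scaled totals, and 3 counts were taken as the floor of a library. Totals of 12825105 to 29749058 counts set the depth, and a floor of counts covers counting error only. On simulated counts the procedure recovered 65% of genes changed by a log2 fold of 1 in the spermatocyte fit of 19029 genes, 63% in the round spermatid fit of 18944 genes and 64% in the joint fit of 19817 genes, and 100% at a log2 fold of 2 in each. The simulated counts had the same dispersion for every gene and no variation shared by the genes of a preparation. Changed genes were drawn only above a minimum level. These shares therefore do not measure the power in the real libraries.

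The gene set, the role groups, the other lists and the tests were chosen with earlier results of these data known. Genes named were the 8 most abundant per kb, up to 8 called members with the largest rise or fall between wild-type fractions, the 3 members with the smallest unadjusted p in each direction of each genotype comparison, and a list of well-known members (the tektins, Dnah1, Dnah8, Dnah17, Dnaic1, Dnaic2, Dnali1, Dnaaf1, Rsph1, Cfap43, Cfap44 and Drc1). Other genes were named after their values were seen. Roles follow general knowledge of the axoneme. Replicate numbers in the labels were checked for pairing: of 26 same-numbered pairs across groups 11 had a correlation of deviations over 0.1 (r -0.42 to 0.54), so they were not taken as pairs. Between fractions, 8 of 9 pairs with consecutive library numbers were over 0.1 (r -0.16 to 0.54), which is a hint of shared preparations that no source states, and these pairs were used as an alternative.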

Additional observations from a re-analysis of the deposited data

Results flagged for a closer look

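Within each group of 4 libraries the highest and the lowest value were compared with the rest by Dixon's gap ratio, for 132 values in all, and 3 had a library that stood apart. Chance alone flags about 1 in 20 groups. Cfap77, a microtubule inner protein, had 33.8 CPM in wild-type spermatocyte replicate 5 against 17.5 to 19.6 CPM in the others of its group. Cfap100 had 61.9 CPM in heterozygous round spermatid replicate 2 against 82.9 to 87 CPM in the others. Dnali1 had 278 CPM in null round spermatid replicate 1 against 249 to 253 CPM in the others, the library in which the Dnah sum was lowest. No explanation of these values was tested.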

How the results depend on the processing

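Counts of called members are given for each alternative that moved them by more than 1.5 times. Round spermatids against spermatocytes gave 16 calls in wild-type, 0 with the outlier libraries added back and 9 to 23 with a library left out, while calls over all genes went from 4934 to 0, 3394 and 6398. In heterozygous mice 2 calls became 1 with only the groups compared, 0 with outliers and 1 to 5 with a library left out, with 1814, 505, 0 and 962 to 2329 over all genes. In null mice 10 calls became 16 without the filter, 2 with outliers and 2 to 17 with a library left out, with 3498, 3918, 2275 and 1248 to 4129 over all genes. Null against wild-type in spermatocytes gave 0 calls, 6 with DESeq2, 6 without the filter, 6 with only the groups compared and 0 to 10 with a library left out, while over all genes calls went from 8 to 3026, 2623, 1303 and, without wild-type replicate 5, 4526. In round spermatids 0 calls became 2 with DESeq2 and 1 without the filter, with 702 and 238 over all genes. Heterozygous against wild-type in spermatocytes gave 0 calls, 5 with DESeq2, 6 without the filter, 0 to 10 with a library left out, 10 being without wild-type replicate 5 and 1 without heterozygous replicate 3, while over all genes calls went from 5 to 1228, 1481, 2966 and 26. The cause was not tested. The other comparisons kept 0 calls throughout.

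The replicate numbers do not pair the samples. With a replicate block, calls between fractions were 24 in wild-type, 2 in heterozygous and 17 in null mice, with 6190, 1757 and 3792 over all genes, and 5 for null against wild-type spermatocytes, with 687 over all genes. Taking consecutive library numbers as pairs gave 18, 2 and 7 calls between fractions, with 4915, 1113 and 3056 over all genes.

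Of 95 pairs of a named gene and a comparison, 43 of 1359 values under the alternatives changed sign, 0 of them while called. In the wild-type fraction comparison Dnah12, Dnah14, Dnah7a, Dnah7b, Dnah7c, Cfap97, Cfap97d1 and Rsph1 were called in 14 of 15 alternatives, Tekt5 in 13, Cfap43 in 10, Cfap54, Cfap70 and Dnah3 in 9, Cfap300 in 8, and Cfap36 and Cfap77 in 5. Genes near or under 1 CPM, such as Dnah11 and Rsph4a, are limited by depth.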
